A study of Mus musculus with 8 samples.

Results

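Laminins are the cross-shaped glycoproteins on which basement membranes are built. This report describes the 9 laminin chain genes Lama1, Lama2, Lama3, Lama4, Lama5, Lamb1, Lamb2, Lamb3 and Lamc1, which were chosen by symbol from the 26263 genes counted in each library. They code for the 5 alpha chains, the 3 beta chains and the most widely used gamma chain. Lamc3, a gamma chain outside these 9, is described with the genes of the same pathway.

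RNA-seq of polyA RNA was carried out on male hybrid embryonic stem cells (ESCs) and on neural precursor cells (NPCs) made from them by 12 days of in vitro corticogenesis. Reciprocal crosses of C57BL/6 (B) and JF1 (J) mice were used, and each cross was represented by 1 line, BJE2 for B/J (C57BL/6 x JF1) and JBE6 for J/B (JF1 x C57BL/6), so line and cross cannot be told apart. Each of the 4 groups (ESC B/J, ESC J/B, NPC B/J and NPC J/B) had 2 libraries, and nothing in the labels says whether these came from separate cultures, so p-values measure only the spread between these libraries. ESCs grew on gelatin in a medium with LIF, BMP4 and a GSK3-β inhibitor, whereas the corticogenesis cultures were plated on Matrigel, an extract of basement membrane that itself contains laminin protein, with B27 lacking vitamin A and 1 µM of dorsomorphin homolog 1.

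A laminin is a trimer of 1 alpha, 1 beta and 1 gamma chain, which assembles inside the cell and is secreted as a unit. The alpha chain carries the globular domains that are bound by integrins and dystroglycan, and the short arms of the chains link laminins into a sheet to which nidogen, perlecan, agrin and type IV collagen are attached. In the early embryo laminin is among the first matrix proteins made, and in the developing cortex the precursor cells hold on to the laminin-rich membrane under the pia by their end-feet.

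The promoter tables of RefSeq (build GRCm38.p6) held 5 of the 9 genes, Lama2, Lama5, Lamb1, Lamb2 and Lamb3, in 6 windows that run from 250 bases before to 50 bases after a start site. Shown here are those of Lama5 and Lamb1, the alpha and the beta chain with the highest level per length at both stages, and that of Lama2, which was near 0 in ESCs and is described below as a strong rise. Capitals mark the GC box, searched as GGGCGG and its reverse complement CCGCCC with no overlap between matches, and the windows were placed on GRCm39 by exact match. They lie at chr2:179867603-179867902 (minus strand), chr12:31315042-31315341 (plus strand) and chr10:27492889-27493188 (minus strand) and read 5′ to 3′ along the gene.
Lama5: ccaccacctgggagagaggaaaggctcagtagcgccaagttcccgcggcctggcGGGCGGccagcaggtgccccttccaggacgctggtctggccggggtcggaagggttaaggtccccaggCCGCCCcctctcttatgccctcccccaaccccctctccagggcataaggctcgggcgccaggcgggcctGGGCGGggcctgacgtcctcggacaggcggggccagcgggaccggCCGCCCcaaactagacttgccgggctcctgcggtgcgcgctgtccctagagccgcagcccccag
Lamb1: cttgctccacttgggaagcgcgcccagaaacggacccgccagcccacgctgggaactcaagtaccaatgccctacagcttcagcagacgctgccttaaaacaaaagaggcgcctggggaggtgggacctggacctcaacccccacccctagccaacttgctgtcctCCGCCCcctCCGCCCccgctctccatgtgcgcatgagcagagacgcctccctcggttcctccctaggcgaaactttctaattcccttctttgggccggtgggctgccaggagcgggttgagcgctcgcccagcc
Lama2: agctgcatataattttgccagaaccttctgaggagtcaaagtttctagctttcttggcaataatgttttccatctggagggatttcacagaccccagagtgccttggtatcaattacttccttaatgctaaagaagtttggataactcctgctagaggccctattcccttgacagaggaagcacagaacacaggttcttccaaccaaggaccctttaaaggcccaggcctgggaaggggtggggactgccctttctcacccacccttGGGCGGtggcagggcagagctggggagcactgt

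The window of Lama5 held 4 GC boxes, that of Lamb1 held 2 and that of Lama2 held 1, while none was found in the windows of Lamb2 and Lamb3. Of all 32851 promoter windows of this length in the table, 35.7% held at least 1 GC box. CpG dinucleotides numbered 24 in Lama5 and 18 in Lamb1 but 1 in Lama2, 4 in Lamb2, and 2 and 5 in the windows of Lamb3. The median over all windows was 7, with quartiles of 3 and 20. The TATA box letters TATAAA, searched on both strands, were absent from all 6 windows and present in 13.6% of all windows. These are descriptions of letters in a window, and nothing about binding was measured.

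Each library had 22537138 to 32706015 reads assigned to genes, so that 1 read is worth 0.0306 to 0.0444 CPM, the count scaled to a common library size, before normalisation. Levels below are CPM after TMM normalisation, which divides each library by a factor estimated from the bulk of the genes. Pou5f1, the pluripotency factor, fell from 1527 to 2379 CPM in ESCs to between 17.2 and 49.99 CPM in NPCs, and all 8 pluripotency markers fell (31.9% of all genes tested did). Of 10 neural precursor markers 8 rose, where 37.5% of all genes did, among them Nes (14.99 to 47.9 CPM in ESCs and 66.6 to 249 CPM in NPCs), and Pax6 overlapped between the stages. Sox2, which is also a pluripotency factor, fell from 461 to 812 CPM to between 40.9 and 199.6 CPM. It had the highest CPM of the 10 in ESCs, so their sum (736 to 1119 CPM in ESCs, 608 CPM in NPC B/J replicate 1 and 1203 to 1623 CPM in the other NPC libraries) does not measure the neural markers alone. The NPC libraries also held markers of other cell types, which are given beside the chains they moved with, and in such bulk samples fewer cells of a type and less RNA per cell cannot be told apart.

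All 9 laminin chain genes passed the filter on low counts. Over both crosses, 6 of the 9 rose between ESCs and NPCs (Lama1, Lama2, Lama4, Lamb1, Lamb2 and Lamb3), 2 fell (Lama3 and Lama5) and Lamc1 did not pass the test (edgeR quasi-likelihood test, Benjamini-Hochberg adjusted p below 0.05 over 16399 genes). Among all genes tested 37.5% were called higher and 31.9% lower, so calls are common in this comparison. The sizes ranged from a fall of 12.2-fold for Lama3 to a rise of 88.7-fold for Lama2. The median log2 fold change of the 9 genes was 0.87, against 0.17 for all genes. With library totals in place of TMM factors the medians were 1.35 and 0.65, and with scaling to Gapdh, Gusb and Tbp they were 1.52 and 0.80, so the direction of small changes depends on the scaling. On TMM levels Gapdh fell from 4332 to 6290 CPM in ESCs to between 1693 and 2154 CPM in NPCs. Tbp fell from 43.1 to 56.8 CPM to between 27.5 and 34.3 CPM, and Gusb overlapped between the stages. Scaling to these 3 genes therefore raises NPC levels against ESC levels, compared with TMM. Of all calls, 54.0% were rises with TMM, 70.1% with library totals and 74.99% with the 3 reference genes, and TMM factors were 0.820 to 0.885 in ESCs and 1.14 to 1.21 in NPCs.

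**Figure D1:**
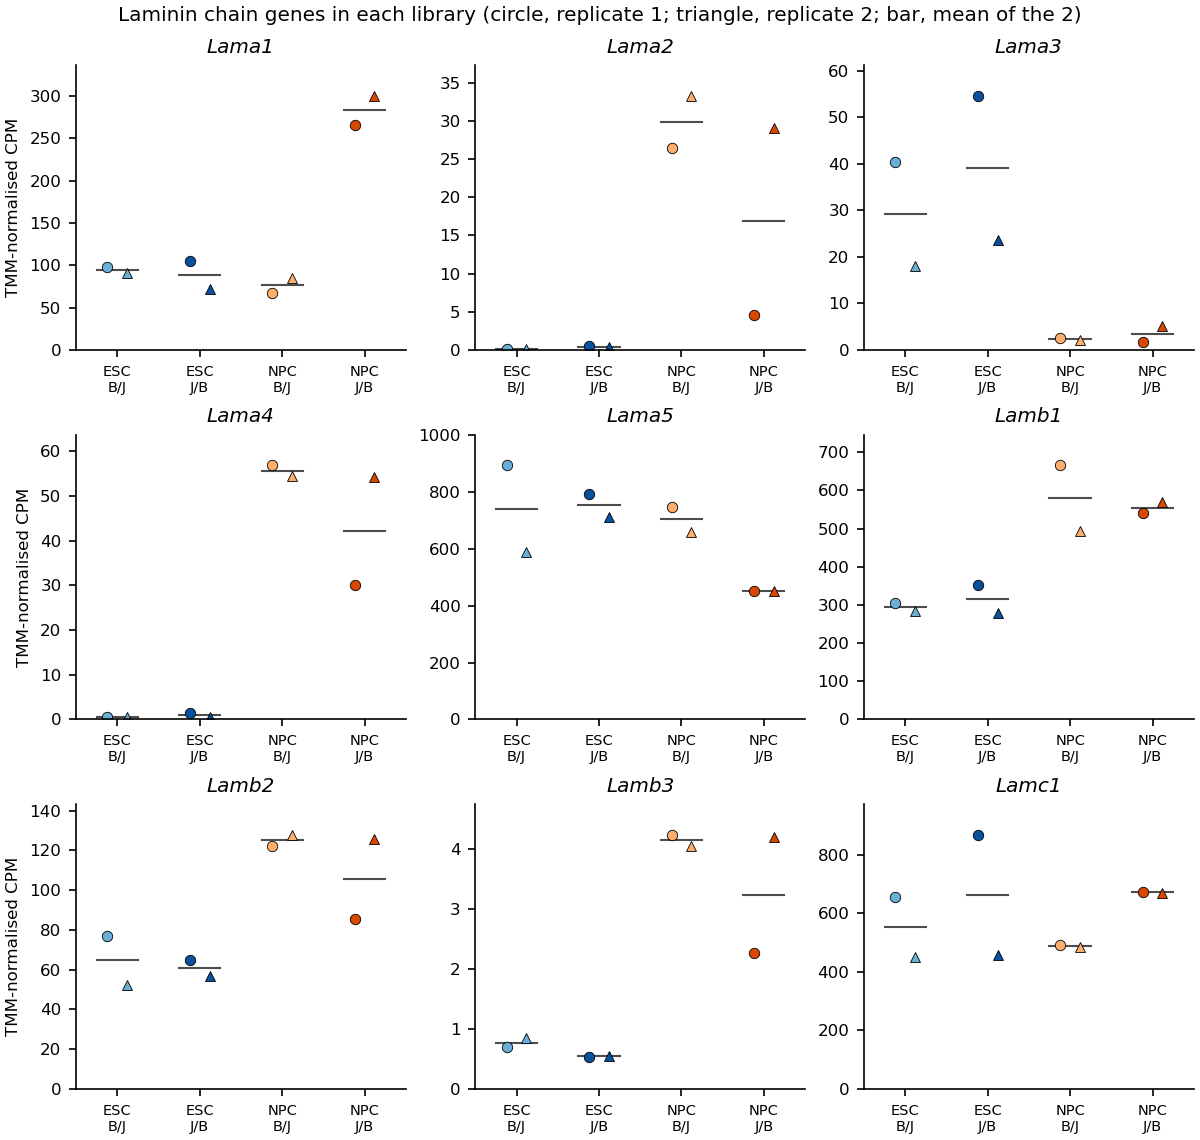
Level of each laminin chain gene (TMM-normalised CPM, linear axis from 0, a different scale per panel) in each of the 8 libraries, by stage and cross; circles are replicate 1, triangles replicate 2 and bars the mean of the 2. Lama1 stands at 266 and 300.45 CPM in the J/B NPCs only, whereas Lama2 and Lama4 are near 0 in every ESC library and Lama3 is low in every NPC library.

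The largest changes among the 9 genes were those of alpha chains. Lama5 and Lama1, the alpha chains of the early embryo, were the abundant ones in ESCs, Lama2 and Lama4 were at most at 1.55 CPM there and rose in NPCs, and Lama3 went the other way. Lama1 rose within J/B and did not pass the test within B/J.

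Lama1 (chromosome 17, 68004223 to 68129642, plus strand, GRCm39) codes for the alpha 1 chain of embryonic basement membranes. In ESCs it was measured at 97.6 and 91.0 CPM in B/J and at 105 and 72.6 CPM in J/B. In NPCs it was at 67.8 and 84.9 CPM in B/J and at 266 and 300.45 CPM in J/B. Both B/J NPC libraries were below both B/J ESC libraries, whereas both J/B NPC libraries were above every other library. Within J/B the gene was 3.18-fold higher in NPCs (log2 fold change 1.67, SE 0.228, adjusted p = 9.78e-04 by edgeR), and within B/J the log2 fold change was -0.30 (SE 0.223, adjusted p = 0.272), positive at 0.17 with library totals and at 0.22 with scaling to Gapdh, Gusb and Tbp. With a term for replicate number within each stage the B/J value was -0.60 (adjusted p = 0.0279 by edgeR), the 1 of 18 alternatives that passed the test. Over both crosses the log2 fold change was 0.68 (adjusted p = 0.00554).

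The difference between the crosses was tested directly. The stage change of Lama1 was 3.93-fold larger in J/B than in B/J (interaction, log2 1.97, SE 0.318), with an unadjusted p of 0.00029 and an adjusted p of 0.99996 by edgeR over 16399 genes. In this interaction test 0 genes were called by edgeR (0% of those tested), 573 had an unadjusted p below 0.05, limma-voom called 0 and DESeq2 called 11, Lama1 among them (adjusted p = 5.26e-04). Among the 9 chains, 1 had an unadjusted p below 0.05, which was Lama1. In NPCs alone, Lama1 was 3.71-fold higher in J/B than in B/J (log2 1.89, SE 0.230, unadjusted p = 4.24e-05, adjusted p = 0.232 by edgeR). This call was made in 3 of 17 alternatives, among them DESeq2 (adjusted p = 2.34e-09) and edgeR without the low-count filter (adjusted p = 0.0270), whereas limma-voom gave 0.185.

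Across the same comparison of J/B with B/J in NPCs, 0 of the 9 chains were called (0.0061% of all genes were called by edgeR). Without adjustment 1050 genes and 2 of the chains had a p below 0.05, DESeq2 called 70 genes and limma-voom 1. The other chain with an unadjusted p below 0.05 was Lama5, which was lower in J/B (log2 difference -0.64, SE 0.222, unadjusted p = 0.0212, adjusted p = 0.755). In ESCs, J/B and B/J differed for 0 of the 9 chains and 0% of all genes by edgeR, while 346 genes and 0 chains had a p below 0.05 before adjustment, DESeq2 called 10 genes and limma-voom 0.

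The genes whose pattern over the 8 libraries was most like that of Lama1 were Srgn (Pearson r = 0.951 of log2 CPM), Gng7 (0.938), Aqp8 (0.915), Gata4 (0.909) and Aldh1a2 (0.899), out of 14020 genes with a mean of at least 1 CPM. The 8 libraries come from 2 lines, so these values are a description of likeness. Srgn, which codes for the proteoglycan serglycin, was between 0.0426 and 0.854 CPM in the ESC libraries, at 0.399 and 0.319 CPM in B/J NPCs and at 13.3 and 20.7 CPM in J/B NPCs. Gata4, a transcription factor of extra-embryonic endoderm and heart, was between 2.47 and 3.45 CPM in ESCs, at 3.36 and 1.69 CPM in B/J NPCs and at 15.1 and 16.0 CPM in J/B NPCs. Each of the 5 genes was higher in both J/B NPC libraries than in the other 6. They were chosen by likeness to Lama1, which is itself highest in those libraries, so this shared pattern follows from the choice.

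**Figure D2:**
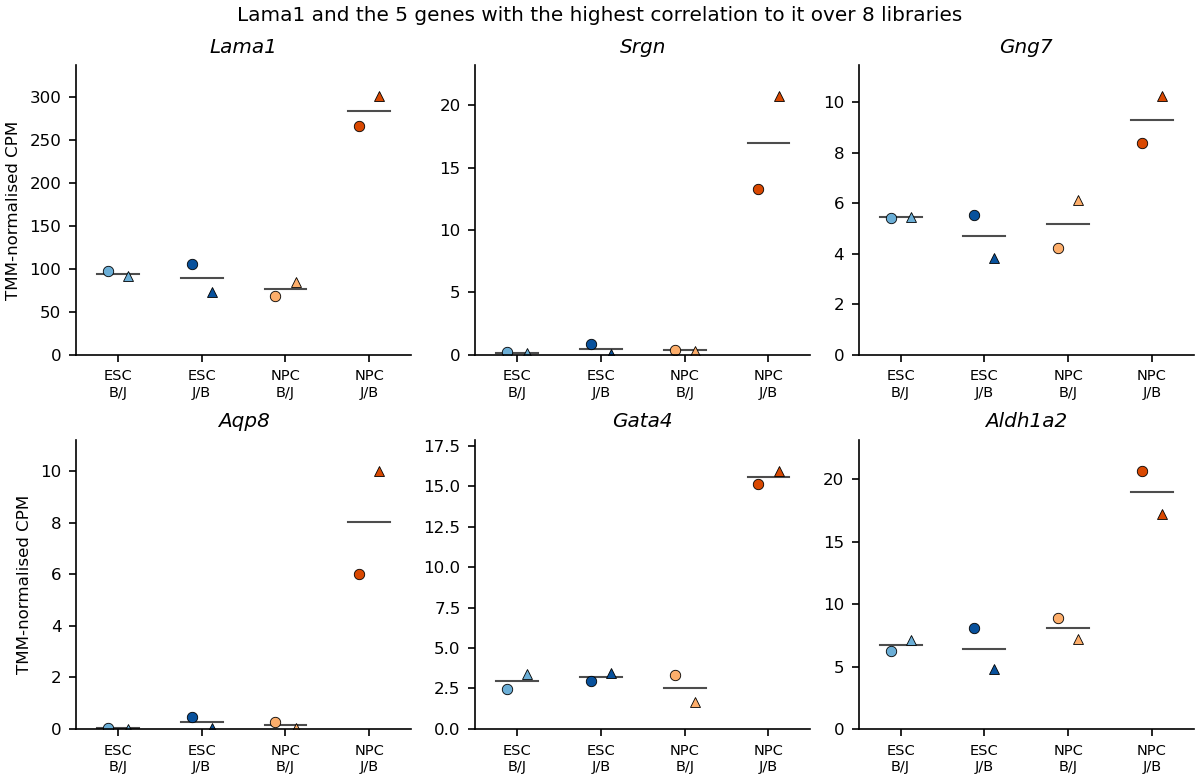
Level (TMM-normalised CPM, linear axis from 0) of Lama1 and the 5 genes most correlated with it, by stage and cross; circles are replicate 1, triangles replicate 2 and bars the mean of the 2. In each panel the 2 J/B NPC libraries are the highest, at 15.1 and 16.0 CPM for Gata4. The 5 genes were chosen by this likeness to Lama1.

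Primitive endoderm is a tissue known to make much Lama1. Of 12 of its markers 11 were tested, and 8 rose and 1 fell over both crosses, against 37.5% and 31.9% of all genes. Within B/J 5 rose and 1 fell (30.1% and 25.6% of all genes), and within J/B 8 rose (29.1%). Gata4, a marker of this list, is also among the 5 genes most correlated with Lama1, so its likeness to Lama1 was part of its selection. It had a log2 fold change of -0.22 within B/J (adjusted p = 0.685) and rose within J/B (2.27, adjusted p = 0.00441). Gata6, Sox17 and Foxa2 rose within B/J (2.60, 3.47 and 5.09) and within J/B (3.25, 3.21 and 5.49). Sox7, the marker that fell, was lower within B/J (-2.10, adjusted p = 0.00482 by edgeR) and at -0.07 within J/B. Dab2 and Plat, the markers with the highest mean CPM in NPCs, rose in both crosses. The sum of all 12 markers was 15.8 to 25.4 CPM in ESCs, 101 and 105 CPM in B/J NPCs and 161 and 185 CPM in J/B NPCs. Afp and Ttr were at 0 in every ESC library. In NPCs Afp, which was below the filter, was at 0.0319 to 0.194 CPM and Ttr at 0.0855 to 10.3 CPM. The part of these cells in the level of Lama1 was not tested.

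Lama5 (chromosome 2, 179818166 to 179867712, minus strand) codes for the alpha 5 chain, the most widespread alpha chain of epithelia and a known support of pluripotent cells in culture. Its level was 895 and 589 CPM in B/J ESCs and 795 and 712 CPM in J/B ESCs. In NPCs it was 748 and 660.0 CPM in B/J and 450.4 and 454 CPM in J/B. The B/J libraries of both stages overlapped, and both J/B NPC libraries lay below all other libraries. Over both crosses Lama5 was 1.33-fold lower in NPCs (log2 fold change -0.41, SE 0.156, adjusted p = 0.0473), a call kept in 6 of 17 alternatives and in the 8 fits that left out 1 library made only without ESC B/J replicate 2 (adjusted p of 0.0685 to 0.179 in the others), and the value was positive at 0.08 with library totals and 0.23 with scaling to Gapdh, Gusb and Tbp. Within J/B the log2 fold change was -0.74 (adjusted p = 0.0244, between 0.0513 and 0.0975 without any 1 of the 4 J/B libraries) and within B/J it was -0.08 (adjusted p = 0.784).

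Lama2 (chromosome 10, 26856032 to 27495754, minus strand) codes for the alpha 2 chain of muscle and peripheral nerve, whose loss causes congenital muscular dystrophy. It was covered by 4 and 3 reads in B/J ESCs and by 9 and 8 reads in J/B ESCs, that is 0.128 to 0.480 CPM. In NPCs it stood at 26.4 and 33.3 CPM in B/J and at 4.56 and 29.1 CPM in J/B. The stages did not overlap, and J/B replicate 1 was the lowest of the NPC libraries. From the pooled counts, 3049 against 24, Lama2 was 82.5-fold higher in NPCs (95% exact binomial interval 55.3 to 129, counting error only). The fitted log2 fold change was 6.47 (SE 0.689, adjusted p = 1.26e-04), or 5.53 without NPC J/B replicate 2, and within J/B it moved from 5.35 to 3.47 without NPC J/B replicate 2 and to 6.12 without NPC J/B replicate 1. Over both crosses the 17 alternatives ran from 5.35 (a term for replicate number within each stage) to 7.14 (scaling to Gapdh, Gusb and Tbp).

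Lama4 (chromosome 10, 38841141 to 38998403, plus strand) codes for the alpha 4 chain of blood vessels and mesenchyme. It was at 0.564 and 0.642 CPM in B/J ESCs and at 1.55 and 0.512 CPM in J/B ESCs. In NPCs it reached 56.9 and 54.5 CPM in B/J and 30.0 and 54.3 CPM in J/B. Every NPC library was above every ESC library, and J/B replicate 1 was again the lowest of the NPCs. The rise was 61.8-fold (log2 fold change 5.95, SE 0.395, adjusted p = 2.33e-05), and within J/B the log2 value of 5.38 became 6.35 without ESC J/B replicate 1 and 4.78 without ESC J/B replicate 2. An annotated exon of Fam229b overlaps exons of Lama4 on the opposite strand over 806 bases, and none of the sources used here gives the strand setting of the counting.

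Markers of mesenchyme rose between the stages as Lama2 and Lama4 did, and those of endothelium were mixed. Of 10 mesenchymal and fibroblast markers 9 rose (37.5% of all genes did), with Thy1 not passing the test. Within B/J 9 rose and Thy1 fell (log2 fold change -1.66, adjusted p = 0.0421 by edgeR), against 30.1% and 25.6% of all genes. Within J/B 8 rose (29.1%). The sum of the 10 went from 13.1 to 86.8 CPM in ESCs to 800 to 1946 CPM in NPCs. The highest ESC library (86.8 CPM) and the lowest NPC library (799.8 CPM) were both J/B replicate 1, which were also the ESC library with the highest and the NPC library with the lowest Lama4 level. Of 8 endothelial markers 4 rose, Pecam1 fell, and Tek, Cldn5 and Tie1 did not pass the test. Their sum went from 45.4 to 116 CPM in ESCs to 246 to 857 CPM in NPCs, and Cdh5 alone went from at most 0.320 CPM to between 210 and 772 CPM. Among NPCs this sum was 857 and 443 CPM in B/J and 284 and 246 CPM in J/B. No marker of these lists was at 0 in all libraries of a stage, and the part of such cells in the rise of Lama2 and Lama4 was not tested.

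Lama3 (chromosome 18, 12466876 to 12717747, plus strand) codes for the alpha 3 chain, which joins the beta 3 chain in the laminin that anchors the epidermis. It was at 40.3 and 18.0 CPM in B/J ESCs and at 54.6 and 23.7 CPM in J/B ESCs. In NPCs it was at 2.48 and 2.04 CPM in B/J and at 1.66 and 5.14 CPM in J/B. All NPC libraries were below all ESC libraries, and in ESCs replicate 1 of each cross was higher than replicate 2. The fall was 12.2-fold (log2 fold change -3.61, SE 0.489, adjusted p = 4.11e-04). Over the 17 alternatives the log2 value ran from -4.47 (a term for replicate number within each stage) to -2.93 (scaling to Gapdh, Gusb and Tbp). Within B/J the log2 value of -3.69 became -2.99 without ESC B/J replicate 1, and within J/B the value of -3.53 became -2.81 when ESC J/B replicate 1 was left out and -4.55 when NPC J/B replicate 2 was left out.

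**Figure D3:**
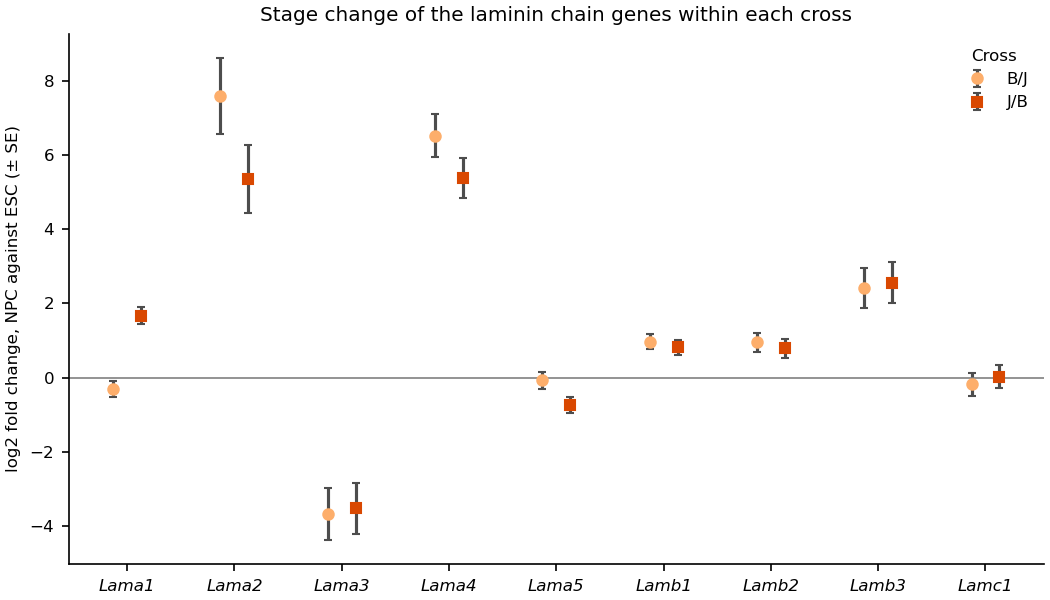
Log2 fold change of NPCs against ESCs (points, with bars of ± 1 SE) for each laminin chain gene, fitted within B/J (circles) and within J/B (squares). Lama1 lies at -0.30 in B/J and 1.67 in J/B, while the other 8 genes lie at 5.35 to 7.59 (Lama2 and Lama4), at 2.41 and 2.56 (Lamb3), at 0.79 to 0.97 (Lamb1 and Lamb2), at -3.69 and -3.53 (Lama3) or between -0.74 and 0.02 (Lama5 and Lamc1).

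The beta chains rose together. Lamb1 and Lamb2 each became about 1.8-fold to 1.9-fold higher in NPCs, and Lamb3 rose from at most 0.855 CPM. For none of the 3 genes did the ESC and NPC libraries overlap.

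Lamb1 (chromosome 12, 31315030 to 31379658, plus strand) codes for the beta 1 chain, the common beta chain of embryonic laminins. It was at 306 and 285 CPM in B/J ESCs and at 351 and 279 CPM in J/B ESCs. In NPCs it was at 666 and 492 CPM in B/J and at 539.7 and 569 CPM in J/B. The lowest NPC library was 1.40-fold above the highest ESC library. The rise was 1.86-fold (log2 fold change 0.89, SE 0.146, adjusted p = 0.00101), and within J/B (0.82, adjusted p = 0.0123) the call was lost when ESC J/B replicate 2 (adjusted p = 0.0654) or NPC J/B replicate 2 (0.0569) was left out. Annotated exons on the opposite strand also overlap those of Lamb1 (Dld, 303 bases), Lamb3 (G0s2, 119 bases) and Lama5 (Adrm1, 85 bases), and G0s2 was at 0.853 to 1.43 CPM in ESCs and 1.14 to 2.18 CPM in NPCs.

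Genes that followed Lamb1 most closely over the 8 libraries were Gpr137 (r = 0.990), Dennd1a (0.990), Rab13 (0.987), Fam168a (0.987) and Spata6 (0.987). All 5 rose between the stages, by log2 fold changes of 1.27 (Spata6) to 1.87 (Fam168a). The 8 libraries come from 2 stages, so each r includes the difference between the stages.

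Lamb2 (chromosome 9, 108356935 to 108367729, plus strand) codes for the beta 2 chain of the neuromuscular junction and the kidney filter. It was at 77.0 and 52.5 CPM in B/J ESCs and at 65.0 and 57.0 CPM in J/B ESCs. In NPCs it was at 122 and 128 CPM in B/J and at 85.6 and 126 CPM in J/B. The rise was 1.83-fold (log2 fold change 0.87, SE 0.181, adjusted p = 0.00335). Within B/J the log2 value was 0.95 (adjusted p = 0.0154) and the call was lost without ESC B/J replicate 2 (0.0971) or NPC B/J replicate 2 (0.0596). Within J/B it was 0.79 (adjusted p = 0.0317), and the call was lost on leaving out NPC J/B replicate 2 (log2 value 0.49, adjusted p = 0.213), ESC J/B replicate 2 (0.115), ESC J/B replicate 1 (0.0698), NPC B/J replicate 1 (0.0505) or NPC B/J replicate 2 (0.0515).

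Lamb3 (chromosome 1, 192890007 to 193027705, plus strand) codes for the beta 3 chain of the epidermal laminin. It was read 16 and 20 times in B/J ESCs and 10 and 13 times in J/B ESCs, that is 0.533 to 0.855 CPM. In NPCs it was at 4.25 and 4.05 CPM in B/J and at 2.28 and 4.20 CPM in J/B. The rise was 5.61-fold (log2 fold change 2.49, SE 0.380, adjusted p = 6.95e-04), and the pooled counts, 495 against 59, gave a ratio of 5.45 (95% exact binomial interval 4.15 to 7.26, counting error only). Within B/J the adjusted p of 0.00638 became 0.0501 without ESC B/J replicate 1. Lama3 and Lamb3, whose chains share a trimer, moved in opposite directions.

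Markers of squamous epithelium, the tissue in which the alpha 3 and beta 3 chains are best known, also rose. Of 6 markers 5 rose, against 37.5% of all genes, and their sum went from 0.955 to 2.35 CPM in ESCs to 67.6 and 67.5 CPM in B/J NPCs and 15.4 and 76.0 CPM in J/B NPCs. Krt15 was at 0 in all ESC libraries and Col17a1 did not pass the test (1.001 CPM on average in ESCs and 1.24 CPM in NPCs). Of 10 trophoblast markers 9 rose, against the same share of all genes, and their sum went from 55.9 to 182 CPM to between 851 and 2568 CPM, with Tpbpa and Prl3d1 at 0 in all ESC libraries. Krt8 had the highest mean of the 10 in NPCs (815 CPM). Tfap2c, which did not pass the test, had the highest in ESCs (91.7 CPM), so this sum leans on single genes. The part of such cells in the levels of Lama3 and Lamb3 was not tested.

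Lamc1 (chromosome 1, 153094597 to 153208774, minus strand) codes for the gamma 1 chain, which is shared by most laminin trimers. It was at 657 and 452 CPM in B/J ESCs and at 869 and 457 CPM in J/B ESCs. In NPCs it was at 493 and 485 CPM in B/J and at 673 and 670.1 CPM in J/B. The stages overlapped, and the ESC libraries of a cross differed more from each other than the NPC libraries did. The log2 fold change was -0.08 (SE 0.218, adjusted p = 0.751), positive at 0.41 with library totals (adjusted p = 0.108) and 0.57 with scaling to Gapdh, Gusb and Tbp (adjusted p = 0.0309). Over all 17 alternatives it ran from -0.39 to 0.57, with a call at each of these ends, so no direction is given. The genes most like it were Otud7b (r = 0.941), Adamtsl4 (0.929), Bbs1 (0.927), Lins1 (0.920) and Akna (0.919), none of which passed the test between the stages.

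Lamc3, the gamma 3 chain found in cortex, retina and skin, had 0 reads in both B/J ESC libraries and 2 and 5 in J/B, but 44.3 and 45.3 CPM in B/J NPCs and 9.21 and 32.7 CPM in J/B NPCs. The pooled counts, 4345 against 7, gave a ratio of 403 (95% exact binomial interval 195 to 1003, counting error only, adjusted p = 5.59e-05 by edgeR). Its lowest NPC library was J/B replicate 1, as it was for Lama2, Lama4, Lamb2 and Lamb3.

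To compare the chains with each other, CPM were divided by the length of all annotated exons of the gene in kilobases. Per length, Lama5 made up 84.3% ± 2.33 (SD, n = 4) of the summed alpha chain level in ESCs, Lama1 12.3% ± 2.07, Lama3 3.31% ± 1.24, and Lama4 and Lama2 under 0.12% in each library. In the B/J NPCs Lama5 still held 84.2% and 80.2% and Lama1 8.99% and 12.2%. In the J/B NPCs Lama5 held 57.0% and 52.1% and Lama1 39.7% and 40.7%. Lama4 rose to 4.20% ± 0.961 and Lama2 to 1.76% ± 0.967 of the alpha chains in NPCs, and Lama3 fell to 0.295% ± 0.155. These shares are taken within a library and so do not depend on how libraries were scaled.

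Among the beta chains the make-up stayed alike while the sum rose. Lamb1 held 73.3% ± 2.89 in ESCs and 73.1% ± 4.24 in NPCs, Lamb2 26.5% ± 2.90 and 26.3% ± 4.12, and Lamb3 under 0.732% in every library. Of the sum of the gamma chains Lamc1 and Lamc3, Lamc1 held at least 99.9% in each ESC library and 93.2% ± 4.01 in NPCs, with Lamc3 at 9.78% and 10.1% in B/J NPCs and at 1.62% and 5.56% in J/B NPCs. The summed beta chains stood at 0.76 ± 0.151 of this gamma chain sum in ESCs (0.567 to 0.884) and at 1.35 ± 0.284 in NPCs (1.07 to 1.71), without overlap, whereas the ratio of alpha chains to it was 1.501 ± 0.282 and 1.37 ± 0.225, with overlap. With the length of the longest transcript, the beta to gamma ratio was 0.86 in ESCs and 1.55 in NPCs, the Lamb1 share about 82% at both stages, and the shares of Lama4 and Lama2 in the alpha chains of NPCs 7.88% and 3.03%.

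**Figure D4:**
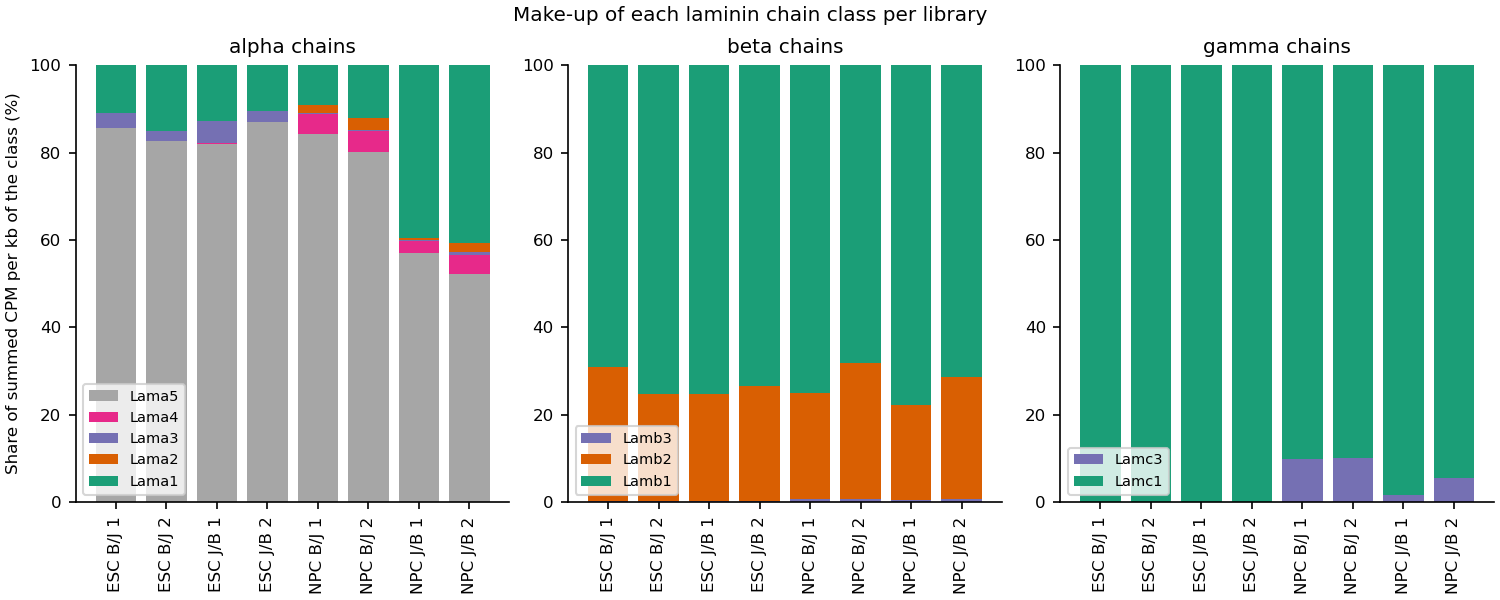
Share of each gene (%) in the summed CPM per kilobase of exon of its chain class, for the alpha chains, the beta chains and the gamma chains Lamc1 and Lamc3, in each of the 8 libraries (stacked bars, each summing to 100). Lama1 takes 39.7% and 40.7% of the alpha chains in the 2 J/B NPC libraries and at most 15.03% in the other 6, and the split between Lamb1 and Lamb2 is alike at both stages.

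The chains act with receptors and partners, whose genes were read from lists. Beyond Lamc3, the list of gamma chains and netrins held the netrins, secreted guidance proteins built from laminin-like domains. Of its 7 genes 5 rose and 0 fell (37.5% and 31.9% of all genes). Besides Lamc3 the largest rises were those of Ntng2 (701 reads against 4, ratio 114, counting interval 44.3 to 419) and Ntng1 (ratio 93.7, counting interval 47.4 to 218), membrane-anchored netrin-G proteins of neurons. All 4 ESC reads of Ntng2 came from B/J replicate 2, and its NPC levels ran from 1.28 to 13.0 CPM. Ntn1, a long-range axon guidance cue, did not pass the test over both crosses (log2 fold change -0.95, adjusted p = 0.0510) and was called lower by DESeq2, by limma-voom, by edgeR without robust estimation and on leaving out ESC B/J replicate 2, ESC J/B replicate 1 or NPC J/B replicate 1. It was called lower within B/J (-1.93, adjusted p = 0.0183), and within J/B its log2 fold change was 0.02 (adjusted p = 0.974).

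Of the 12 laminin receptor genes 6 rose and 1 fell, against the same 37.5% and 31.9% of all genes. The largest rises were those of Itga2 (log2 fold change 3.13, SE 0.544, adjusted p = 0.00131), Itga3 (2.65, SE 0.212, adjusted p = 4.04e-05) and Itgb4 (2.07, SE 0.361, adjusted p = 0.00138), integrin subunits that pair into receptors for laminins, with Itga3 at 15.5 to 30.4 CPM in ESCs and 100.4 to 163 CPM in NPCs. Itgb1, the common partner of the alpha 2, alpha 3, alpha 6 and alpha 7 integrins, went from 145 to 239 CPM to between 475 and 670 CPM (1.51, SE 0.193) and is named after its values were seen. Rpsa, a ribosomal protein that is also known as a laminin receptor, fell from 2432 to 3505 CPM to between 849 and 1302 CPM (-1.39, SE 0.188, adjusted p = 3.93e-04). Itga6, Itga7, Dag1 (dystroglycan), Bcam and Sdc4 did not pass the test, with log2 fold changes of -0.19, 0.18, -0.03, 0.27 and -0.05. With scaling to Gapdh, Gusb and Tbp the counts were 9 and 1, and those of all 16399 genes were 8469 and 2824.

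Of the 21 genes of basement membrane partners 19 were tested, of which 15 rose and 1 fell, against 37.5% and 31.9% of all genes. Col4a3 and Col4a4 were at 0 in all ESC libraries and below the filter. Tinagl1, a matrix glycoprotein that binds laminin, rose most (log2 fold change 7.71, SE 0.465, adjusted p = 1.84e-05), followed by the type IV collagen genes Col4a5 (7.52, SE 0.331) and Col4a2 (6.82, SE 0.432), the last from 4.38 to 22.0 CPM in ESCs to between 769 and 1009 CPM in NPCs. Nid2, one of the 2 nidogens that link laminin to collagen, fell from 454 to 517 CPM to between 147 and 248 CPM (-1.30, SE 0.179, adjusted p = 4.17e-04), while Nid1, named after its values were seen, went from 96.1 to 339 CPM to between 446 and 855 CPM (1.62, SE 0.395). Hspg2 (perlecan), Agrn (agrin) and Frem2 did not pass the test, at log2 fold changes of -0.29, 0.14 and 0.63. The partner genes summed to 1907 to 3037 CPM in ESCs and 5669 to 6688 CPM in NPCs, whereas the 9 laminin chains summed to 1490 to 2242 CPM and 1944 to 2212 CPM.

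Of 10 enzymes that build the laminin-binding sugar on dystroglycan, 6 rose and 0 fell, where 37.5% and 31.9% of all genes did. The largest rises were those of Pomgnt2 (log2 fold change 1.86, SE 0.331, adjusted p = 0.00154) and B4gat1 (1.16, SE 0.217, adjusted p = 0.00192). The median of the 10 was 0.48, against 0.17 for all genes. The number that rose was 4 to 6 without any 1 library, with 4 reached on leaving out ESC B/J replicate 1, NPC B/J replicate 1, NPC J/B replicate 1 or NPC J/B replicate 2, and 10 with scaling to Gapdh, Gusb and Tbp, which called 8469 of all 16399 genes higher.

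**Figure D5:**
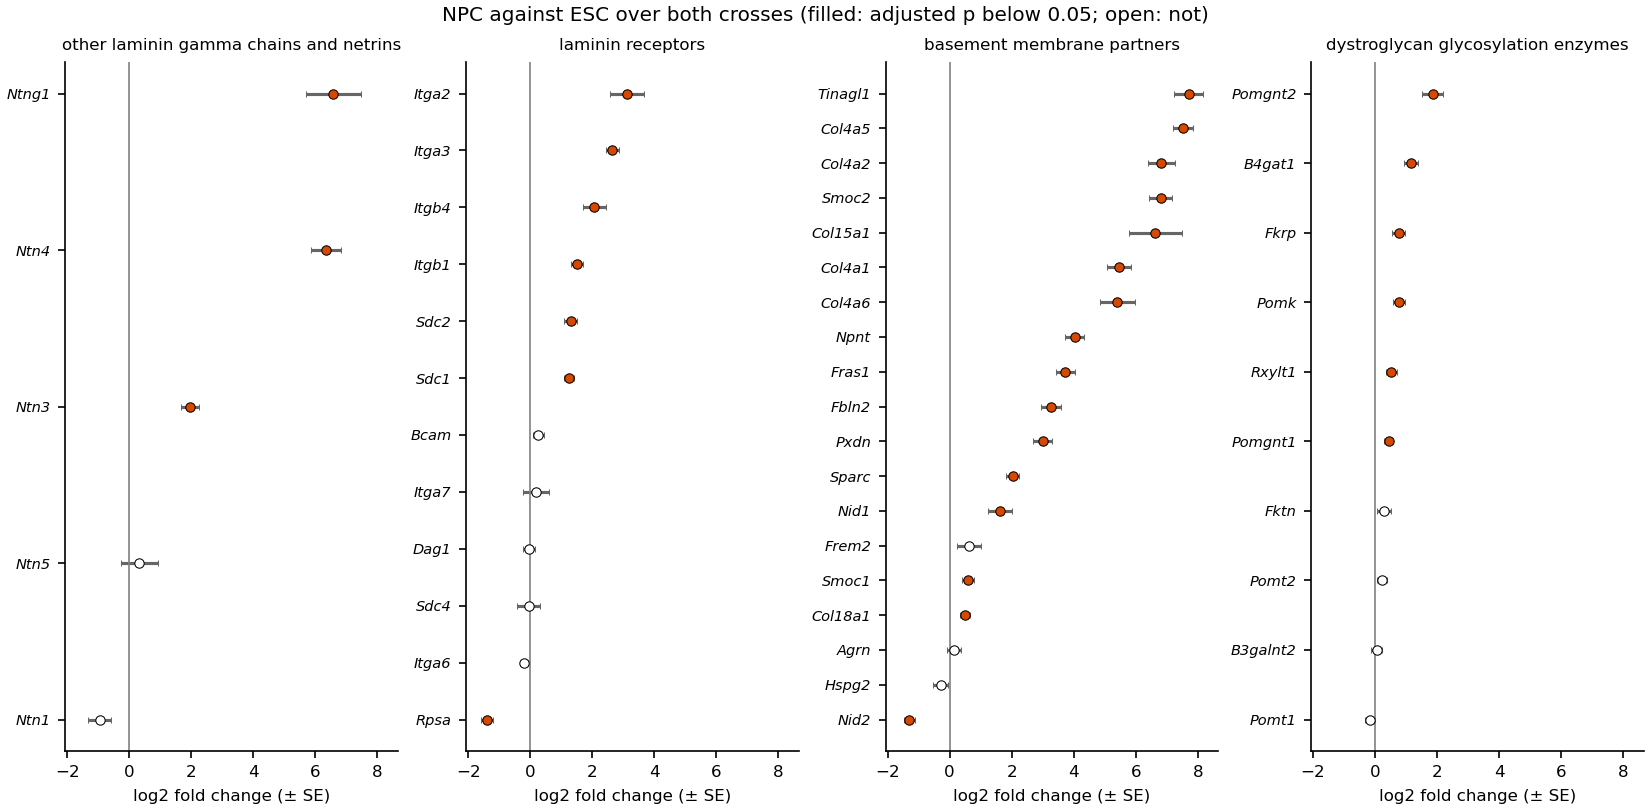
Log2 fold change of NPCs against ESCs over both crosses (points, with bars of ± 1 SE) for the genes tested in the 4 pathway lists, filled where the adjusted p is below 0.05 and open where it is not. Lamc3 and Ntng2, which had a group at 0, are not drawn. Tinagl1, Col4a5 and Col4a2 lie farthest to the right at 7.71, 7.52 and 6.82, and Rpsa and Nid2 are the filled points on the left at -1.39 and -1.30.

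Within single crosses the chains were called as follows. In B/J, 5 of 9 rose (Lama2, Lama4, Lamb1, Lamb2 and Lamb3) and Lama3 fell, against 30.1% and 25.6% of all genes. In J/B, 6 of 9 rose, the same 5 and Lama1, and Lama3 and Lama5 fell, against 29.1% and 25.3% of all genes. The number called in J/B was 5 of 9 when ESC J/B replicate 2 or NPC J/B replicate 2 was left out. Besides that of Lama1, no interaction of stage and cross among the 9 chains had an unadjusted p below 0.05. Over the 8 libraries the log2 levels of Lama2 and Lama4 were the most alike of any pair (r = 0.976), followed by Lama4 and Lamb1 (0.969), while Lama3 ran opposite to Lama2, Lama4, Lamb1, Lamb2 and Lamb3 (-0.905 to -0.741) and Lama1 to Lama5 (-0.812), and Lamc1 had r of -0.172 to 0.538 with the other 8. These are descriptions over libraries that share 2 lines and come from 2 stages, so each r includes the difference between the stages.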

How the data were processed

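RNA-seq libraries of polyA RNA from 4 groups of 2 were used. Per the study's methods, the authors aligned reads with TopHat2 to mm39 masked at JF1 SNPs and kept properly paired alignments of mapping quality 20 or more. The deposited values are raw counts per gene, both alleles summed. HTSeq is named in the submitters' processing notes, without version. The libraries were made with 2 kits and run on 2 sequencers, and the sources used here do not say which library had which, so this batch could not be checked and was not tested. Reads on no gene (5.76% to 10.9%) were left out. Replicates differed beyond counting noise (chi-square per degree of freedom 60.3 to 84.7), so none was merged in the fits. Counts were pooled by stage only for the ratios with exact binomial intervals. Those intervals hold counting error and leave out the spread between replicates.

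Counts were fitted in R 4.3.3 with edgeR 4.0.16 (TMM, filterByExpr with minimum count 10, robust quasi-likelihood, 4 group means), limma 3.58.1 and DESeq2 1.42.0, with Benjamini-Hochberg adjustment over 16399 genes and a threshold of 0.05. The fits were also run on simulated counts for the comparison over both crosses, and the outcome is not given here. Exon lengths and positions came from GENCODE vM39. Alternatives were other scalings, tools and filters, a replicate block, a 2-fold threshold, transcript length and leaving out each library. Where this left 1 library in a group, it was assumed to vary like the others. Members, lists and tests were chosen with earlier results of these data known. Named were all members, up to 3 of the largest rises and falls per pathway list, the 5 genes most correlated with Lama1, Lamb1 and Lamc1, and stage and reference genes. Some genes of these lists are not reported here and were left out of the list counts and chain sums.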

Additional observations from a re-analysis of the deposited data

Results flagged for a closer look

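Dixon's criterion at the 95% level was applied to each of the 9 chains in the 4 ESC and in the 4 NPC libraries, 18 groups in all, of which chance would mark about 1 in 20. It marked 4, and 3 of these are the same library, NPC J/B replicate 1. In that library Lama4 was at 30.0187 CPM where the other NPC libraries lay between 54.3 and 56.9 CPM, Lamb2 was at 85.5775 CPM against 122 to 128 CPM, and Lamb3 was at 2.27763 CPM against 4.05 to 4.25 CPM. Among ESCs, Lama4 was at 1.54706 CPM in J/B replicate 1 and between 0.512 and 0.642 CPM in the others. Marker sums in NPC J/B replicate 1 were the lowest of the NPCs for squamous epithelium (15.4 CPM against 67.5 to 76.0 CPM), for mesenchyme (799.8 CPM against 1438 to 1946 CPM) and for pluripotency (81.6 CPM against 128 to 288 CPM) and the highest for neural precursors (1623 CPM against 608 to 1470 CPM). In ESC J/B replicate 1 the mesenchymal sum was 86.8 CPM against 13.1 to 17.7 CPM. The part of these differences in the chain levels was not tested.

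The stage change of Lama1 differed between the crosses. Every B/J NPC library was below every B/J ESC library and every J/B NPC library was above every J/B ESC library, and the log2 difference between the changes was 1.97458 (-0.30 in B/J and 1.67 in J/B). The test of this difference did not pass the threshold by edgeR and passed it by DESeq2, as given above.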

How the results depend on the processing

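Of the calls over both crosses, those of the 7 chains other than Lama5 and Lamc1 kept their direction and side of the threshold in all 17 alternatives fitted. Lama1, whose B/J change was positive at 0.17 with library totals and 0.22 with scaling to Gapdh, Gusb and Tbp, kept its J/B rise in all 18. The number of chains called over both crosses was 4 when a 2-fold change was also required and 7 or 8 without any 1 library. Within J/B it was 5 with the 2-fold requirement and 5 to 8 without any 1 library, the lowest being reached when ESC J/B replicate 2 or NPC J/B replicate 2 was left out. Within B/J it was 5 or 6 without any 1 library. Between J/B and B/J in NPCs, 1 chain (Lama1) was called by DESeq2 and 1 without the low-count filter, and in the interaction 1 by DESeq2. The log2 fold change of Lama5 turned positive with library totals and with scaling to the 3 reference genes, at 0.0752 and 0.23 over both crosses and 0.40 and 0.44 within B/J. Within J/B it was 0.0200 with the reference genes. Leaving out 1 library gave -0.35 to 0.26 within B/J, with 0.01 without NPC B/J replicate 2. Lamc1 turned positive at 0.41 and 0.57 over both crosses and 0.29 and 0.34 within B/J under the same scalings, and within J/B it was 0.80 with the reference genes (adjusted p = 0.0393). Without 1 library it ranged from -0.27 to 0.18 over both crosses (0.07 without ESC B/J replicate 1, 0.18 without ESC J/B replicate 1), -0.43 to 0.12 within B/J (0.12 without ESC B/J replicate 1) and -0.35 to 0.55 within J/B (-0.35 without ESC J/B replicate 2, -0.01 without NPC J/B replicate 1). Causes were not tested. At this depth 3 reads are worth 0.128 to 0.160 CPM in ESCs, so the ESC levels of Lama2 and Lamc3 have wide counting error.

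Libraries with the same replicate number deviated together within a stage (correlation of replicate differences over 16399 genes 0.518 in ESCs and 0.587 in NPCs) but hardly across stages (0.0489 to 0.0915), and the labels do not say what a number marks. A replicate block left 8 chains called over both crosses. A replicate block within each stage left 9 called over both crosses and 1 (Lama1, adjusted p = 0.0417) between J/B and B/J in NPCs, and gave log2 values of -0.39 for Lamc1 over both crosses (adjusted p = 0.0389), -0.52 for Lamc1 within B/J (adjusted p = 0.0357), -0.27 for Lamc1 within J/B and -0.60 for Lama1 within B/J (adjusted p = 0.0279).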

Other observations

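In ESCs, the level in replicate 1 was above that in replicate 2 in both crosses for Lama1, Lama2, Lama3, Lama5, Lamb1, Lamb2 and Lamc1, below it in both for Lamb3, and mixed for Lama4. Lamc1 was at 657 and 452 CPM in B/J and at 869 and 457 CPM in J/B, Lama3 at 40.3 and 18.0 CPM and at 54.6 and 23.7 CPM, and Nid1 at 207 and 96.1 CPM and at 339 and 106 CPM. Itgb1 went the other way, at 162 and 239 CPM and at 145 and 221 CPM. The sum of the pluripotency markers was also higher in replicate 1 (8072 and 5747 CPM in B/J, 8819 and 4932 CPM in J/B). That of the neural precursor markers was lower there (801 and 1119 CPM in B/J, 736 and 999 CPM in J/B). Nid1, Itgb1 and these sums were picked after their values were seen, and no test was made.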
